A study of Mus musculus with 30 samples.

Results

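The calcaneus, the heel bone into which the Achilles tendon inserts, was compared between unstimulated control mice at day 5 and naive mice at day 0. All genes of the bone libraries of these groups were compared, which are 6 of the 30 samples in the series, 3 in each group. Both groups carry the genotype label Acta1,Ai32. Acta1 encodes skeletal muscle actin, and Ai32 is an allele that gives cells channelrhodopsin, a light-gated channel, where a recombinase is active. The label of the unstimulated group names it as the control of an optical stimulation lasting 5 days, and the label of the naive group gives no treatment and day 0. The other bone groups, used below for context, were stimulated at day 5, unstimulated at day 12 and stimulated at day 12, with 3 samples each. The sources used here do not give the age or handling of the mice. The groups differ in both day and treatment label, so day, age, handling and being a control in the experiment cannot be told apart.

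Bone tissue holds several cell lineages at once. Osteoblasts lay down a matrix of type I collagen and mineralise it, osteocytes are osteoblasts buried in that matrix, and osteoclasts, which come from the blood lineage, resorb it. Around and inside the bone lie periosteum, tendon insertions, marrow, vessels and nerves, whose cells enter the same RNA extract. In such bulk RNA, fewer cells of a type and less RNA per cell cannot be told apart.

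Total gene counts ran from 20.8 to 27.8 M in the 6 libraries. Unstimulated replicates 1 and 2 were nearly identical: the biological coefficient of variation between them was 2.64%, while the 14 other within-group pairs of bone libraries had 12.7% to 33.6%. They were summed and counted as 1 sample, so the comparison rests on 2 unstimulated and 3 naive libraries. Levels below are counts scaled by library size (CPM, on TMM-scaled totals), with the summed unstimulated library before unstimulated library 3. Bone markers were present in every library: the 20 osteoblast genes summed to 94668 to 109819 CPM in unstimulated and 128487 to 141689 CPM in naive libraries. Naive library 3 lay far from all other bone libraries along the first principal component. The 26 muscle fibre genes summed to 27016 to 29343 CPM in unstimulated bones and to at most 23356 CPM in naive bones, with only 262 CPM in naive library 3.

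Among the genes with higher RNA levels in the unstimulated bones at day 5 were Gsn and Tnxb of connective tissue, the growth factor binding protein gene Igfbp6, the Wnt antagonist gene Dkk2 and the macrophage scavenger receptor gene Cd163. Among the few that were lower were Smpd3 and Galnt3, which act in mineralisation and phosphate control. Of 18851 genes tested with edgeR's quasi-likelihood test, 72 (0.382%) rose and 10 (0.053%) fell at an adjusted p below 0.05, together 0.435%. With no adjustment, 2781 genes had a p below that threshold. The 72 genes that rose had a median log2 fold change of 1.16 (0.48 to 3.32), and the 10 that fell one of -0.76 (-4.15 to -0.53). Of these, 71 and 9 code for proteins. All 82 had libraries that did not overlap between the groups, as did 18.2% of all genes in the higher and 18.5% in the lower direction. The median over all genes was -0.02.

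**Figure D1:**
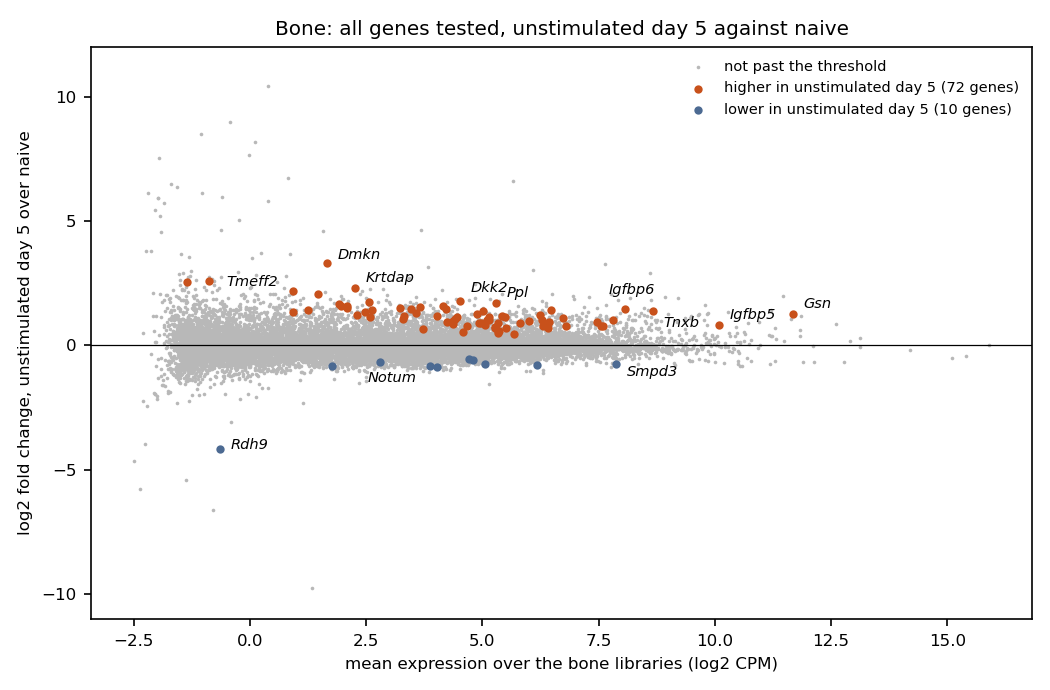
Log2 fold change of unstimulated day 5 over naive bone (vertical axis) against mean log2 CPM over the 14 bone libraries (horizontal axis), 1 point per gene tested. The 72 genes that rose (orange) and the 10 that fell (blue) spread from low to high expression, with none among the most highly expressed genes, and many genes with larger changes at low expression did not pass the test.

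The calls depended strongly on single naive libraries. Without naive library 2 only Ppl passed, and without naive library 3 only Ppl, Klhl29 and Tgfbr3; without naive library 1, 197 genes rose and 48 fell. Without the summed unstimulated library 29 rose and 7 fell, and without unstimulated library 3, 35 rose and 0 fell (edgeR; 1142 genes at an unadjusted p below 0.05). When only the 5 compared libraries were fitted, 0 genes passed (2677 at an unadjusted p below 0.05).

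Some genes of the extracellular matrix and of connective tissue fibroblasts were among those that rose. Gsn encodes gelsolin, which severs actin filaments, and is strongly expressed by fibroblasts. It had 3464 and 3476 CPM in unstimulated bones, against 1789, 1215 and 1359 CPM in naive bones, a log2 fold change of 1.25 ± 0.16 (SE; adjusted p = 0.0131). Every unstimulated library lay above every naive one, and naive library 1 was the highest of the naive bones. Tnxb, the gene of tenascin X, a glycoprotein that organises collagen fibrils, had 507 and 636 CPM in unstimulated bones and 294, 180 and 174 CPM in naive bones (1.41 ± 0.24, adjusted p = 0.0376). Nid1, encoding the basement membrane linker nidogen, had 255 and 232 CPM in unstimulated bones and 161, 123 and 135 CPM in naive bones (0.80 ± 0.12, adjusted p = 0.0197). For both genes, too, the groups did not overlap.

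Other matrix genes that rose were chosen for mention after their values were seen. They were Fbln1 (fibulin 1, log2 fold change 0.99 ± 0.18), Efemp1 (fibulin 3, 1.16 ± 0.21), Col4a5 (a basement membrane collagen chain, 1.19 ± 0.18) and Gpc3 (a cell surface proteoglycan, 1.16 ± 0.22), with adjusted p-values of 0.0214 to 0.049. A list of 18 connective tissue fibroblast genes, written after the calls were seen and so no independent evidence, held 6 that rose: Gsn, Tnxb, Igfbp6, Fbln1, Ebf2 and Scara5. Of its members, 17 had a log2 fold change above 0, where 46.9% of all genes did, and the median was 1.07. The ferritin receptor gene Scara5 had 103 and 126 CPM in unstimulated bones and 56.3, 36.7 and 34.0 CPM in naive bones. Ebf2, a transcription factor of mesenchymal progenitors in mouse, had 14.6 and 14.8 CPM in unstimulated bones and 6.49, 5.06 and 6.42 CPM in naive bones. Other matrix lists gave no call: 0 of 20 collagen genes passed in a list that does not hold Col4a5 (median -0.06), 0 of 22 collagen crosslinking genes (median -0.11) and 0 of 18 genes of matrix proteases and their inhibitors (median -0.15).

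**Figure D2:**
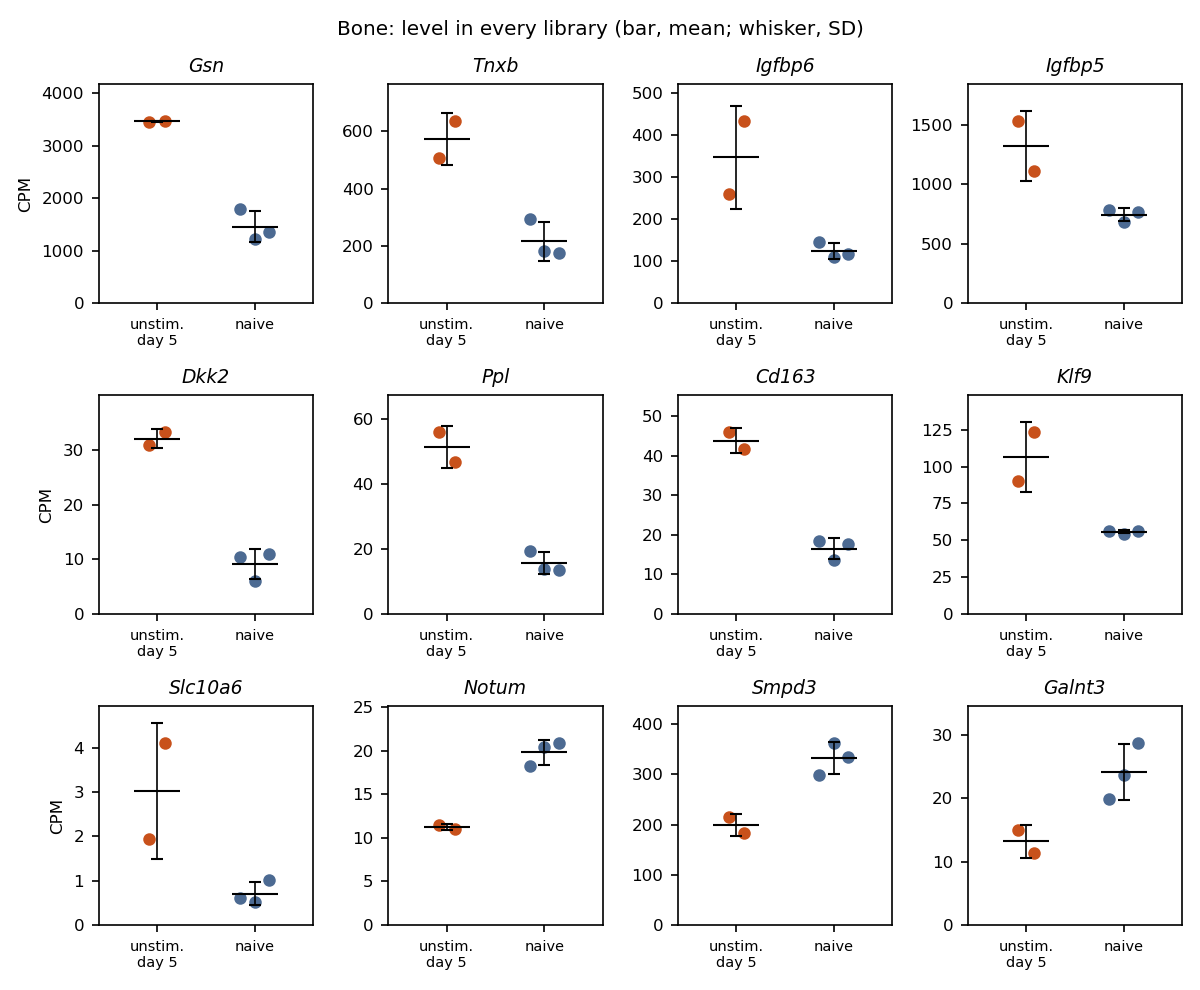
CPM of 12 genes in each bone library, unstimulated day 5 on the left (the summed library, then library 3) and naive on the right (libraries 1 to 3); bars are means and whiskers SDs (n = 2 and 3). The genes were picked from the 82 called ones, all of which have separate libraries, so the separation in every panel follows from that choice. Of them, 9 are higher and 3 (Notum, Smpd3 and Galnt3) lower in unstimulated bones.

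Genes of signalling pathways that shape bone were among the calls in both directions. Insulin-like growth factors are held in bone by binding proteins, of which 2 rose. Igfbp6, whose protein prefers IGF2, had 260 and 433 CPM in unstimulated bones and 146, 110 and 117 CPM in naive bones (1.48 ± 0.23, adjusted p = 0.0279). Igfbp5, which is bound in bone matrix, had 1530 and 1112 CPM in unstimulated bones and 781, 679 and 765 CPM in naive bones (0.83 ± 0.16, adjusted p = 0.0487). Of the 17 IGF genes tested, 2 rose, 0 fell, 13 had values above 0 and the median was 0.27. Igfbp7 (0.54 ± 0.23, adjusted p = 0.3) and the growth hormone receptor gene Ghr (0.26 ± 0.13, adjusted p = 0.377) did not pass.

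Wnt signals drive bone formation and are held back by secreted inhibitors. Dkk2 encodes an inhibitor of the Wnt co-receptors that is also needed for late osteoblast function in mouse. It had 30.8 and 33.3 CPM in unstimulated bones, against 10.5, 5.95 and 11 CPM in naive bones (1.81 ± 0.28, adjusted p = 0.0279). Notum, whose enzyme removes the lipid that Wnt proteins need, moved the other way. It had 11.5 and 11 CPM in unstimulated bones and 18.2, 20.4 and 20.9 CPM in naive bones (-0.82 ± 0.11, adjusted p = 0.0131). The 28 Wnt ligands and regulators thus held 1 gene that rose and 1 that fell, with a median of -0.17. Axin2, a general target of canonical Wnt signals, had 11.3 and 11.8 CPM in unstimulated bones and 8.73, 5.90 and 5.72 CPM in naive bones, and did not pass (0.76 ± 0.17, adjusted p = 0.0842). Ror1, a receptor tyrosine kinase that binds Wnt5a, had 7.85 and 12.6 CPM in unstimulated bones and 2.77, 3.14 and 3.11 CPM in naive bones (1.76 ± 0.21, adjusted p = 0.0131). Wnt11, a ligand of the noncanonical branch and outside the naming rule, had 11.2 and 12.7 CPM in unstimulated bones and 7.27, 4.17 and 5.67 CPM in naive bones (adjusted p = 0.0487).

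Of 28 genes of TGF-beta and BMP signalling, 2 rose and 0 fell, with 19 above 0 and a median of 0.06. Tgfbr3 encodes betaglycan, a co-receptor that presents TGF-beta, and had 89.0 and 103 CPM in unstimulated bones and 55.5, 51.8 and 61.4 CPM in naive bones (0.77 ± 0.10, adjusted p = 0.0131). Bmp7 did not pass (-0.59 ± 0.15, adjusted p = 0.129). Among ligands and receptors named after their values were seen, Fgf2 (basic fibroblast growth factor, 1.0 ± 0.15), Ntrk2 (the receptor of brain-derived neurotrophic factor, 1.03 ± 0.17) and Cntfr (the receptor of ciliary neurotrophic factor, 1.50 ± 0.25) rose, with adjusted p-values of 0.0234 to 0.0341. Il11ra1, the interleukin 11 receptor gene, rose by 0.77 ± 0.15 (adjusted p = 0.049), although mice carry near-identical copies of it among which reads may be split. Of 25 semaphorin and axon guidance genes 1 rose, Sema3c (1.19 ± 0.23, adjusted p = 0.049).

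Other genes with large rises had varied functions. Ppl had the smallest adjusted p of all genes and was called after leaving out any library. It encodes periplakin, a linker of intermediate filaments to junctions, and lies on chromosome 16 (GRCm38 chr16:5086291-5132421, minus strand). It had 55.9 and 46.8 CPM in unstimulated bones, against 19.4, 13.9 and 13.7 CPM in naive bones (1.71 ± 0.16, adjusted p = 0.0019). Klhl29, of the kelch-like family, had 21.1 and 33.5 CPM in unstimulated bones and 11, 8.38 and 7.43 CPM in naive bones (1.60 ± 0.18, adjusted p = 0.00877). Tmeff2, a membrane protein gene with follistatin-like domains, had 2.54 and 2.44 CPM in unstimulated bones and 0.745, 0.421 and 0.402 CPM in naive bones (2.21 ± 0.31, adjusted p = 0.0131). Egfl6 (a secreted protein with EGF-like repeats, 1.68 ± 0.30), Sprn (shadow of prion protein, 1.59 ± 0.22) and Ildr2 (an immunoglobulin-like receptor, 1.54 ± 0.26) also rose, with adjusted p-values of 0.0131 to 0.0444.

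Among the libraries compared, epidermal genes were highest in 1 library. Dmkn (dermokine, 3.32 ± 0.58, adjusted p = 0.0426) and Krtdap (2.3 ± 0.38, adjusted p = 0.0341), genes of differentiating keratinocytes, had the largest rises among called genes of at least 1 CPM. Dmkn had 18.6 and 2.67 CPM in unstimulated bones and 1.14, 1.12 and 0.954 CPM in naive bones, so that the summed library stood far above the rest. Without that library its log2 fold change was 1.34 and it was not called (adjusted p = 0.14). Krtdap had 8.75 and 4.65 CPM in unstimulated bones and 1.28, 1.08 and 1.76 CPM in naive bones. For this gene unstimulated library 3 thus also lay above every naive one. Krtdap had 9.74, 7.79 and 6.23 CPM in unstimulated bones at day 12, and 4.22, 6.51 and 2.94 CPM in stimulated bones at day 5. The 10 of 15 keratinocyte genes tested, which include both, were all above 0 and summed to 245 and 30.3 CPM in unstimulated and 16.4 to 22.9 CPM in naive bones. The basal keratin gene Krt5 had 291 and 379 counts in the 2 samples of the summed library and 0 in unstimulated library 3 and in the 3 naive libraries. A count of 0 allows up to 0.108 to 0.144 CPM there. The median of the list, 2.87, was 0.58 without the summed library. The part of such RNA in the other rises was not tested.

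Macrophage genes gave 1 call. Cd163, the haemoglobin scavenger receptor of resident macrophages, had 46.0 and 41.6 CPM in unstimulated bones and 18.3, 13.6 and 17.7 CPM in naive bones (1.40 ± 0.19, adjusted p = 0.0131). Of the 18 macrophage genes it was the only one called, and the median was 0.11, or -0.12 without the summed library. Lyve1 and Folr2, which mark macrophages along vessels, had libraries that did not overlap but were not called. Lyve1 had 47.6 and 39.9 CPM in unstimulated bones and 12.8, 7.77 and 15.9 CPM in naive bones (1.85 ± 0.38, adjusted p = 0.0726). Folr2 had 20.5 and 18.0 CPM in unstimulated bones and 7.56, 6.18 and 8.63 CPM in naive bones (1.37 ± 0.32, adjusted p = 0.105). For Mrc1, another gene of resident macrophages, the libraries overlapped (0.35 ± 0.16, adjusted p = 0.333). Gpnmb, a glycoprotein gene of osteoblasts and macrophages named after its values were seen, rose by 1.16 ± 0.17 (adjusted p = 0.0193).

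Most genes that glucocorticoids induce had higher levels, with 1 call. Glucocorticoids act through a receptor that binds DNA at an inverted repeat, and Klf9 is among its direct targets in many tissues. Klf9 had 90.0 and 123 CPM in unstimulated bones and 56.1, 54.5 and 56.4 CPM in naive bones (0.94 ± 0.16, adjusted p = 0.0381). Of 18 glucocorticoid-responsive genes tested, 15 had log2 fold changes above 0 and the median was 0.76, or 0.50 without unstimulated library 3. Libraries did not overlap for 11 of them, all higher, as for 18.2% of all genes in that direction. Fkbp5, a co-chaperone of the receptor, had 94.2 and 131 CPM in unstimulated bones and 46.6, 50.6 and 39.9 CPM in naive bones, just outside the threshold (1.3 ± 0.25, adjusted p = 0.0524). Zbtb16 (1.84 ± 0.45, adjusted p = 0.12) and Glul (0.69 ± 0.16, adjusted p = 0.0855) did not pass either. All 19 circadian clock genes had values above 0, with a median of 0.41. One, the nuclear receptor gene Rora, rose: it had 37.6 and 55.1 CPM in unstimulated bones and 30.4, 25.9 and 26.4 CPM in naive bones (0.74 ± 0.14, adjusted p = 0.048). Clock and glucocorticoid genes follow the hour of day, and the sources used here do not give the hour of collection.

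The 250 bases before the start of transcription were searched on both strands for the receptor's inverted repeat, GNACANNNTGTNC, a motif chosen after the values were seen. Of 61 genes that rose and had a promoter in the RefSeq table for GRCm38.p6, 2 held it (3.28%), Slc10a6 and Map3k6, as did 45 of 12667 genes tested (0.355%) and 2 of 16 list genes (12.5%), Sgk1 and Mt1. The same promoters were also searched for the RUNX core, TGTGGT, which 7 of the 61 held (11.5%), against 13.6% of the genes tested. It was also held by 3 of 13 osteoblast list genes (23.1%) and by 1 of 4 genes that fell (25%). The 3 sequences below, from RefSeq, are read 5′ to 3′ on the strand of the gene, with the match to the receptor's inverted repeat in capitals. They lie at chr5:103629404-103629653 on the minus strand (Slc10a6), at chr4:133240568-133240817 on the plus strand (Map3k6) and at chr10:21993640-21993889 on the plus strand (Sgk1).
Slc10a6: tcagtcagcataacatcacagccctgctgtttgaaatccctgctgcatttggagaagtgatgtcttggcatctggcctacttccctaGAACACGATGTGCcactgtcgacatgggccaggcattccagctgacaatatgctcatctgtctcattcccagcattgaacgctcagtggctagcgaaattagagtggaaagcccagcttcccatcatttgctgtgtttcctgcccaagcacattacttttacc
Map3k6: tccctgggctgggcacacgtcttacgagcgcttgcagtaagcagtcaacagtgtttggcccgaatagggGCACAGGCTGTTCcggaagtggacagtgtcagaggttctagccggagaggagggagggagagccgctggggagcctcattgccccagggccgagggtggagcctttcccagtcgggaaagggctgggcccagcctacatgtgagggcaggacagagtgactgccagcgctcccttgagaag
Sgk1: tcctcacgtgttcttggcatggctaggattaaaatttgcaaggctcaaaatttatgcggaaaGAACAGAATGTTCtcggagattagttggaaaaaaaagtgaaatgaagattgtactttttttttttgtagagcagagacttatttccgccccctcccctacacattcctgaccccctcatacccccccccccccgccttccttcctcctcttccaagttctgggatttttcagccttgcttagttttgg
The match is a description of letters and not of binding. Slc10a6, which encodes a transporter of sulphated steroids, had 1.93 and 4.10 CPM in unstimulated bones and 0.603, 0.515 and 1.0 CPM in naive bones (2.08 ± 0.37, adjusted p = 0.0426). Its value was 1.45 without unstimulated library 3 (adjusted p = 0.32). Map3k6, a stress kinase gene, had 39.6 and 42.1 CPM in unstimulated bones and 22.4, 21.6 and 21.2 CPM in naive bones (0.91 ± 0.13, adjusted p = 0.0184). Sgk1, the kinase whose gene is a textbook target, overlapped between the groups (0.57 ± 0.26, adjusted p = 0.34).

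Genes of bone-forming cells were mostly lower in the unstimulated bones, with 2 calls. Smpd3, a sphingomyelinase needed for mineralisation in mouse, had 215 and 183 CPM in unstimulated bones and 299, 363 and 335 CPM in naive bones (-0.74 ± 0.14, adjusted p = 0.0487). Smpd3 is one of 20 osteoblast genes, of which 2 fell, 0 rose and 19 had values below 0. Libraries of 18 of them were lower without overlap, as were those of 18.5% of all genes, and the list median was -0.51. The osteoblast transcription factor gene Sp7 had 161 and 123 CPM in unstimulated bones and 206, 222 and 224 CPM in naive bones (-0.61 ± 0.12, adjusted p = 0.052). Runx2, the factor that starts the lineage, had 87.3 and 74.6 CPM in unstimulated bones and 108, 123 and 126 CPM in naive bones (-0.55 ± 0.11, adjusted p = 0.052). Both lay just outside the threshold. The type I collagen gene Col1a1 had 37279 and 29368 CPM in unstimulated bones and 44729, 48771 and 46558 CPM in naive bones (-0.49 ± 0.15, adjusted p = 0.192). For the osteocalcin gene Bglap the value was -0.62 ± 0.22 (adjusted p = 0.23).

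Genes of mineral control were mostly lower too. Galnt3, whose enzyme protects the phosphate hormone FGF23 from cleavage, had 15.1 and 11.3 CPM in unstimulated bones and 19.9, 23.7 and 28.8 CPM in naive bones (-0.87 ± 0.16, adjusted p = 0.0487). In a list of 15 phosphate and mineral genes tested, which does not hold Galnt3, 1 fell, Smpd3, which is also in the osteoblast list, and 14 were below 0, with a median of -0.45. Vdr, which encodes the vitamin D receptor (-0.69 ± 0.13, adjusted p = 0.052), the phosphatase gene Phospho1 (-0.45 ± 0.11, adjusted p = 0.12) and the kinase gene Fam20c (-0.50 ± 0.13, adjusted p = 0.125) did not pass. The others that fell were Hey1, a Notch target (-0.59 ± 0.10, adjusted p = 0.0326), the small leucine-rich proteoglycan gene Podnl1 (-0.73 ± 0.12, adjusted p = 0.0362), the cadherin gene Cdh24 (-0.66 ± 0.13, adjusted p = 0.049) and the guanine nucleotide exchange factor gene Arhgef19 (-0.53 ± 0.09, adjusted p = 0.0424). Hey1 had 26.6 and 21.5 CPM in unstimulated bones and 37.0, 35.4 and 36.6 CPM in naive bones. Rdh9, a retinol dehydrogenase gene, was under 1 CPM in every library of both groups (-4.15 ± 0.71, adjusted p = 0.0376), so low that this fitted value depends on the prior count, and Gm47547 is a predicted gene (-0.83 ± 0.15, adjusted p = 0.0458).

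Of 14 osteocyte genes 0 were called, 10 were below 0 and the median was -0.37, or -0.19 without unstimulated library 3. Dmp1, a matrix protein gene of young osteocytes, had 234 and 150 CPM in unstimulated bones and 298, 313 and 442 CPM in naive bones (-0.87 ± 0.26, adjusted p = 0.177). The Wnt inhibitor gene Sost had 21.4 and 15.7 CPM in unstimulated bones and 25.3, 23.6 and 29.9 CPM in naive bones (-0.50 ± 0.39, adjusted p = 0.565). Neither overlapped between the groups, and neither passed.

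All 18 osteoclast genes had values below 0, 15 of them without overlap (18.5% of all genes were lower without overlap), and 0 were called. Their median was -0.68, or -0.43 without naive library 3. Acp5, the tartrate-resistant acid phosphatase of osteoclasts, had 1033 and 1139 CPM in unstimulated bones and 1605, 1647 and 2462 CPM in naive bones (-0.81 ± 0.25, adjusted p = 0.189). The collagen-degrading protease genes Ctsk (-0.63 ± 0.26, adjusted p = 0.302) and Mmp9 (-0.82 ± 0.19, adjusted p = 0.0988) and the fusion gene Ocstamp (-0.87 ± 0.22, adjusted p = 0.126) did not pass. Naive library 3 had the highest level of Acp5, Ctsk, Mmp9 and Ocstamp.

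**Figure D3:**
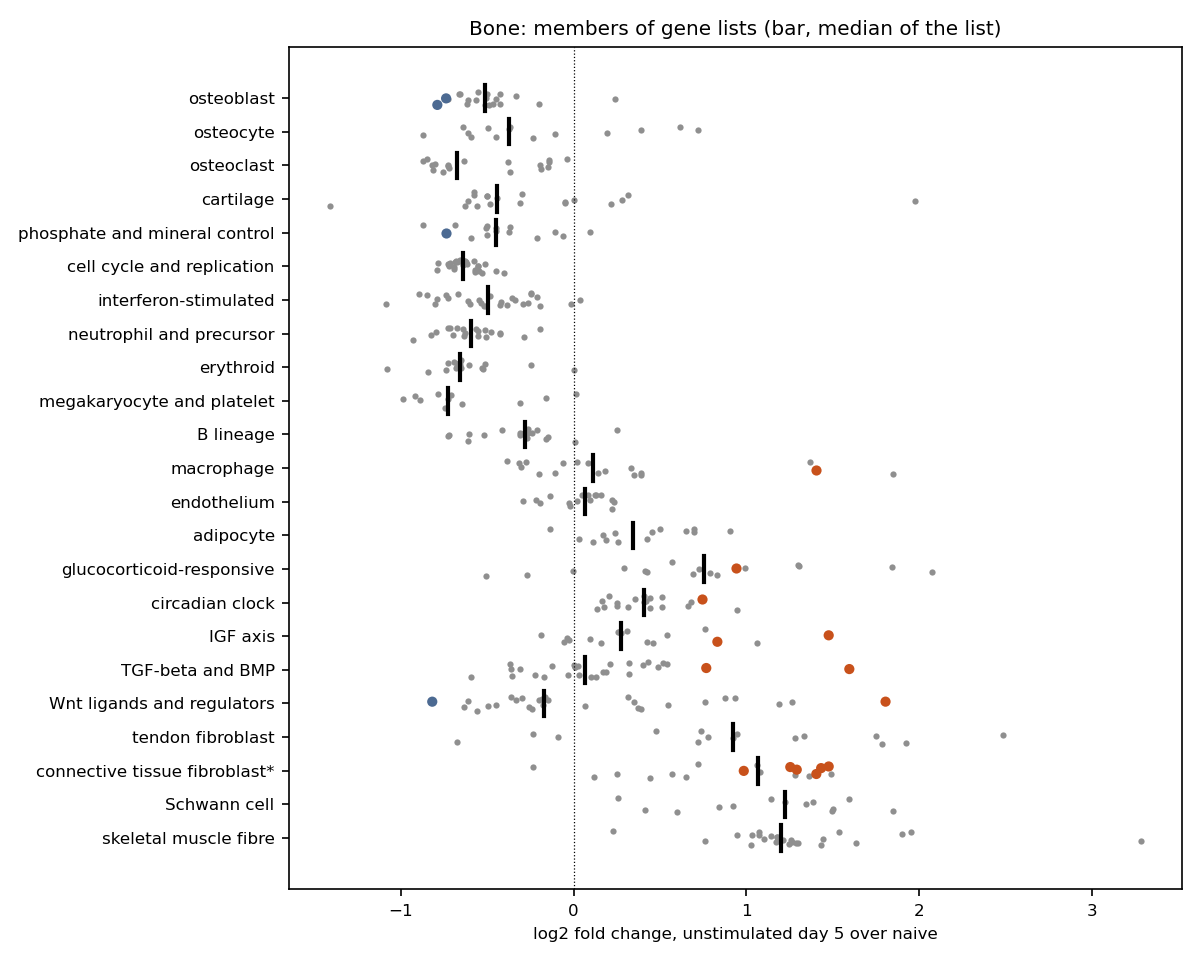
Log2 fold change of unstimulated day 5 over naive bone (horizontal axis) for each tested member of 23 gene lists (rows); black bars are list medians, and large coloured points are genes that rose (orange) or fell (blue). The starred list was written after the calls were seen. The medians of the osteoblast, osteocyte, osteoclast, neutrophil, erythroid, platelet and cell cycle lists lie left of 0 and those of the fibroblast, Schwann cell and muscle lists right of it, with most members not called.

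Lists of dividing and blood-forming cells also lay below 0 without a call. The 30 cell cycle and replication genes were all below 0 and all without overlap (18.5% of all genes were lower without overlap), with a median of -0.64. Their smallest adjusted p was 0.195, for the replication helicase gene Mcm4, which had 38.6 and 34.5 CPM in unstimulated bones and 46.4, 52.1 and 60.3 CPM in naive bones. Of 28 interferon-stimulated genes 27 were below 0 (median -0.50, or -0.29 without naive library 3). All 20 neutrophil genes were below 0 (median -0.60, or -0.21 without naive library 2), as were 17 of 18 erythroid genes (median -0.66, or -0.14 without naive library 3) and 10 of 11 platelet genes (median -0.73). Members of a list rise and fall together in a library, so these counts, and those of the other lists, are not independent observations. The 16 endothelial genes had a median of 0.07.

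Most markers of tissues attached to bone had log2 fold changes above 0, and 0 of the muscle, Schwann cell and tendon genes were called. All 26 muscle fibre genes were above 0 with a median of 1.20, which was 2.09 without naive library 1 and 0.64 without naive library 3, and 0 were called. Acta1, whose name stands in the genotype label, had 4657 and 5040 CPM in unstimulated bones and 4209, 2157 and 31.5 CPM in naive bones (1.18 ± 1.22, adjusted p = 0.657). All 13 Schwann cell genes were above 0 (median 1.22, or 2.32 without naive library 1) and summed to 1297 and 2491 CPM in unstimulated and 239 to 1444 CPM in naive bones. Of 15 tendon fibroblast genes 12 were above 0 and 0 were called. Their median was 0.92, or 0.58 without unstimulated library 3, and they summed to 5647 and 8338 CPM in unstimulated and 3601 to 3894 CPM in naive bones. Tnmd, the tendon membrane protein tenomodulin, had 76.6 and 179 CPM in unstimulated bones and 52.6, 32.4 and 25.8 CPM in naive bones (1.78 ± 0.45, adjusted p = 0.133). The small proteoglycan gene Fmod had 1269 and 2567 CPM in unstimulated bones and 841, 735 and 709 CPM in naive bones (1.33 ± 0.29, adjusted p = 0.0782). For the tendon transcription factor gene Scx the libraries overlapped (0.78 ± 0.33, adjusted p = 0.308). The part of muscle, nerve and tendon RNA in the rises was not tested. Gsn had 1789, 1215 and 1359 CPM in naive libraries 1 to 3, whose muscle fibre sums were 23356, 13285 and 262 CPM. In the same order, their Schwann cell sums were 1444, 303 and 239 CPM and their tendon fibroblast sums 3894, 3632 and 3601 CPM. Whether the level of Gsn goes with any of these sums was not tested.

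The levels at day 5 were set beside those of unstimulated bones at day 12. Of the 72 genes that rose, all had a day 12 mean above the naive mean, and of the 10 that fell 9 had one below it. The same naive libraries chose these genes, so a day 12 mean on the same side of them can follow in part from that choice. Between unstimulated day 12 and unstimulated day 5 bones, 0 of 18851 genes passed with edgeR (2375 at an unadjusted p below 0.05), while DESeq2 called 265 and limma-voom 19. Dkk2 had 41.9, 31.7 and 24.1 CPM at day 12, spread around its 30.8 and 33.3 CPM at day 5. Smpd3 had 202, 210 and 198 CPM at day 12, between its 215 and 183 CPM at day 5. Gsn had 5525, 5322 and 5271 CPM at day 12, above its 3464 and 3476 CPM at day 5, a difference that did not pass (log2 fold change 0.63, adjusted p = 0.245). Rdh9 had 0.659, 0.875 and 0.896 CPM at day 12, and 0.0191 and 0.0387 CPM at day 5.

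Stimulated bones at day 5 lay mostly between the unstimulated and the naive ones. Of the 72 genes that rose, 71 had a stimulated mean above the naive mean and 61 had one between the naive and unstimulated means. Of the 10 that fell, 8 had a stimulated mean below the naive mean, and all 8 lay between. These counts use the same naive and unstimulated libraries that chose the genes, so that a value between them can follow from that choice. Cd163 had 27.4, 27.1 and 37.3 CPM in stimulated bones at day 5, below its 46.0 and 41.6 CPM in unstimulated bones. Galnt3 had 18.1, 15.2 and 16.2 CPM in stimulated bones, above its 15.1 and 11.3 CPM in unstimulated bones. Il11ra1 stood outside that range, with 115, 130 and 107 CPM in stimulated bones and 93.4 and 95.5 CPM in unstimulated bones.

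**Figure D4:**
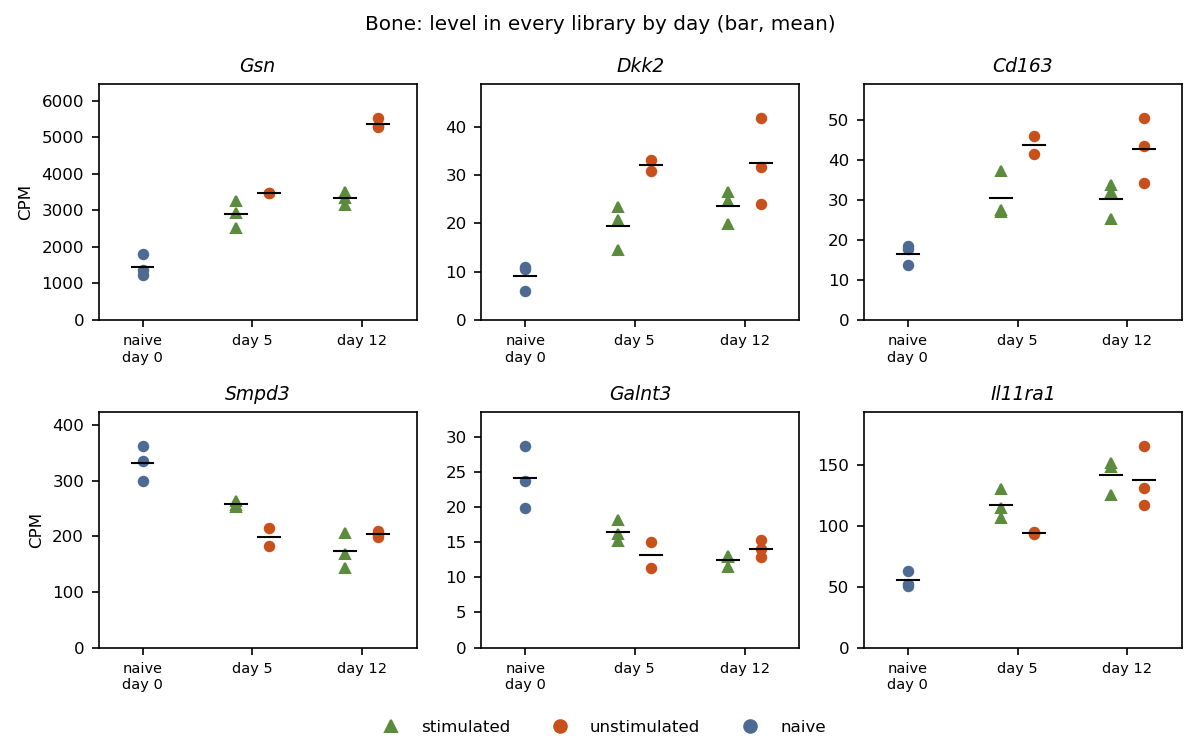
CPM of 6 genes in every bone library by day (horizontal axis), from naive at day 0 (blue circles) to days 5 and 12, with stimulated (green triangles) left of unstimulated (orange circles); bars are means. Gsn, Dkk2 and Cd163 were higher and Smpd3 and Galnt3 lower than in naive bones in all 4 later groups.

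The same contrast in Achilles tendon was used to ask which changes differed between the tissues. In a fit of 29 libraries of both tissues, 2 of 19845 genes (0.0101%) differed in their change, Ror1 and Klhl29, and both differences were positive in bone relative to tendon. On totals scaled over both tissues, Ror1 had 6.14 and 9.87 CPM in unstimulated and 2.19, 2.48 and 2.40 CPM in naive bones, and 4.49, 4.77 and 8.73 CPM in unstimulated and 5.70, 7.10 and 6.98 CPM in naive tendons. The difference of its log2 fold changes was 1.89 ± 0.31 (adjusted p = 0.0424). Klhl29 had 16.5 and 26.3 CPM in unstimulated and 8.66, 6.63 and 5.72 CPM in naive bones, and 11.9, 15.4 and 14.6 CPM in unstimulated and 17.6, 14.0 and 17.9 CPM in naive tendons (difference 1.84 ± 0.31, adjusted p = 0.0424). Neither difference passed when any one of the following was left out: bone naive library 2 or 3, unstimulated bone library 3, tendon naive library 1, 2 or 3, or unstimulated tendon library 1 or 2 (1.47 to 1.98, adjusted p = 0.0708 to 0.235). Egfl6 (3.09 ± 0.67), Dkk2 (2.38 ± 0.50), Igfbp6 (2.27 ± 0.47) and Tnxb (1.77 ± 0.35) had differences with an adjusted p of 0.069 each. These are examples, and Fgf2 (1.58 ± 0.28, adjusted p = 0.0555) and Dmkn (4.25 ± 0.85, adjusted p = 0.069) lay there too. Tendon means of the first-named genes were lower in unstimulated than in naive libraries, which adds to each difference. They were 1.75 and 4.77 CPM for Egfl6, 12.2 and 18.2 for Dkk2, 108 and 188 for Igfbp6, and 226 and 291 for Tnxb. For Ppl the difference was 1.25 ± 0.52 (adjusted p = 0.433), and for Smpd3 it was -1.48 ± 0.49 (adjusted p = 0.281).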

How the data were processed

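RNA of 15 bone samples was used, with 15 tendon samples for 1 comparison. Per the labels' protocols, a PureLink kit gave the RNA for poly-A libraries. The tools, per the submitters' processing notes, were cutadapt 2.3, FastQC 0.11.8, STAR 2.7.8a, RSEM 1.3.3 and MultiQC 1.7 with GRCm38; neither annotation nor strandedness is given there. What the authors deposited are expected counts from RSEM for 55426 genes, already whole numbers, so rounding changed none. RSEM shares reads of near-identical genes by an estimate. Of the gene IDs, 55154 (99.5%) matched GENCODE M21 names.

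Samples were grouped from their labels; they do not state whether replicates are different animals, and the p-values cover the spread between samples, which may be technical. Pairs of bone libraries were compared by a chi-square test of each gene with 20 to 2000 counts in the pair. Between unstimulated bone replicates 1 and 2 at day 5, 8.92% of these genes had an unadjusted p below 0.05. In the other pairs the share was 29.3% to 46.6%. Sampling noise alone gives a share near that threshold. Replicates 1 and 2 were summed. Groups were compared with the quasi-likelihood test of edgeR 4.0.16 under R 4.3.3. It used TMM scaling, filterByExpr with minimum counts of 10 and 15 in total, and a robust fit over 14 bone libraries. Adjustment was by Benjamini-Hochberg over all genes. SE is the fold change over the square root of F. Both other comparisons, day 12 against day 5 and bone against tendon, used the same test. On simulated counts it recovered 90% of genes changed by 1 and 100% by 2 on the log2 scale in bone, with 2.06% of calls false. The simulation gave every gene the same spread, drew unstimulated replicates 1 and 2 independently and changed only well-expressed genes. The real libraries differ in this, so these shares check the code and are not the power or false share of the real calls. Alternatives used DESeq2 1.42.0 and limma 3.58.1. Counting limits cover counting error only, with a floor of 3 counts.

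The genes, 43 lists and rules were chosen with earlier results of these data known. Among calls with at least 1 CPM and no overlap, the rule named the 12 largest changes and the 5 of highest CPM each way. Xist, chromosome Y genes and predicted genes were left out of these, while other X-linked genes, such as Egfl6, were kept. The rule also named up to 4 members of each list with the smallest adjusted p, and 10 bone, muscle and tendon genes. Other names were chosen after their values were seen. The replicate numbers are shared by the groups, but the labels do not state that they mark pairs, so same-numbered libraries were not taken as pairs. Their deviations from the group means had correlations of -0.20, -0.05 and -0.17. These cannot show whether the libraries are pairs, because unstimulated replicates 1 and 2 are nearly identical. Items withheld for evaluation are not reported here.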

Additional observations from a re-analysis of the deposited data

Results flagged for a closer look

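The change between unstimulated day 5 and naive samples differed between bone and tendon for 2 genes, by a test of the difference itself (edgeR, bone and tendon fitted together). For Ror1 the log2 fold change was larger in bone by 1.89 (adjusted p = 0.0424), and for Klhl29 by 1.84 (adjusted p = 0.0424). Ror1 was higher in both unstimulated bones than in all 3 naive bones, while its tendon libraries overlapped. Klhl29 followed the same pattern. Both calls were lost in most omissions of a single library. They stayed past the threshold without bone naive library 1, without the summed bone library and without unstimulated tendon library 3. They were lost without bone naive library 2 or 3, unstimulated bone library 3, tendon naive library 1, 2 or 3, or unstimulated tendon library 1 or 2, where the differences were 1.47 to 1.98 (adjusted p = 0.0708 to 0.235), and with only the compared libraries fitted (1.89 for Ror1, adjusted p = 0.195, and 1.84 for Klhl29, adjusted p = 0.165).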

How the results depend on the processing

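All 82 genes called in bone kept their direction in every alternative, as their libraries do not overlap, and the median size of their log2 fold changes lay between 0.95 and 1.20. The number of calls moved far more. The genes that rose and fell numbered 378 and 151 with DESeq2, 392 and 160 with limma-voom, 200 and 57 with the near-identical samples kept apart, and 0 and 0 with only the compared libraries fitted. Of the 82, 79 were called by DESeq2, which gave the other 3 no adjusted p, and 81 by limma-voom. Leaving out 1 library gave between 1 and 197 genes that rose and between 0 and 48 that fell; without the summed library they were 29 and 7, and with replicate 1 in its place 56 and 4.

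Day 12 against day 5 gave 265 calls with DESeq2, 19 with limma-voom, 14 with the samples kept apart and 0 to 20 when 1 library was left out. The difference between bone and tendon gave 172 calls with DESeq2, 1932 with limma-voom, 46 with the samples kept apart, 5 with no count filter, 0 with only the compared libraries fitted (1798 at an unadjusted p below 0.05) and 0 to 435 when 1 library was left out (13 without the summed library, 6 with replicate 2 in its place). The cause of these shifts was not tested.

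The replicate number was also fitted as a block, with replicate 1 in place of the summed library. Without the block that gave the 56 and 4 above. With the block, 2 genes rose (Ppl and Gpnmb) and 0 fell in bone (2382 at an unadjusted p below 0.05). Between days 0 genes differed, and between tissues 3. The correlations of same-numbered libraries were below 0. Unstimulated replicates 1 and 2 are nearly identical, so these correlations cannot tell whether same-numbered samples share an animal or batch.

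With 2 libraries against 3, a gene that did not pass is not shown to be unchanged. The comparison holds 1 library rich in epidermal RNA and 1 naive library low in muscle RNA.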

Other observations

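Other gene groups moved little or without a call. Of 20 targets of YAP and SRF, 16 had log2 fold changes above 0 with a median of 0.30. The receptor tyrosine kinase gene Axl had 330 and 296 CPM in unstimulated bones and 228, 173 and 189 CPM in naive bones (0.67 ± 0.13, adjusted p = 0.0551). Of 12 pericyte and smooth muscle genes 11 were above 0 (median 0.45), and of 14 adipocyte genes 13 (median 0.34). The lipid droplet gene Plin4 had 392 and 435 CPM in unstimulated bones and 279, 158 and 224 CPM in naive bones (0.91 ± 0.22, adjusted p = 0.107). All 22 ribosomal protein genes were below 0, but by a median of only -0.14. Of 11 genes of RANKL signalling and osteoclast growth factors 0 were called (median -0.11); the macrophage growth factor gene Il34 had 18.2 and 17.0 CPM in unstimulated bones and 13.9, 10.1 and 11.9 CPM in naive bones (0.55 ± 0.14, adjusted p = 0.115). The 27 immediate early genes, which respond within minutes to stress or loading, had a median near 0 (-0.0024).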
